A study of Homo sapiens with 6 samples.

Results

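The Toll adaptors, the interleukin-1 receptor-associated kinases (IRAKs) and the NOD sensors form a group of 10 genes, taken here as the rows of the deposited gene table whose Ensembl identifiers map to MYD88, TICAM1, TICAM2, TIRAP, IRAK1, IRAK2, IRAK3, IRAK4, NOD1 and NOD2 on the primary chromosomes. All 10 were found among the 63677 genes listed. They were measured by RNA-Seq in RPMI8226, a human multiple myeloma (MM) cell line without any engineered change (genotype given as wild type), after 6 hr with 100 nM GST-PTR1 or 100 nM GST, in 3 biological replicates of each treatment. GST-PTR1 joins glutathione-S-transferase (GST) to the PTR1 domain of HAPLN1, a protein that links proteoglycans to hyaluronan in the extracellular matrix, and the control cells received GST alone. Both proteins were made in Escherichia coli and purified on glutathione beads, and all libraries came from a single cell line. In work not analysed here, the study assayed bacterial lipopolysaccharide. It reports a level a few orders of magnitude under what its NF-κB DNA-binding assay can detect in these cells.

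Toll-like receptors sense microbial products at the cell surface or in endosomes and signal through adaptor proteins that carry the same TIR fold. MYD88 serves most Toll-like receptors and the interleukin-1 receptor family and recruits IRAK4, which activates IRAK1 and IRAK2, whereas IRAK3 restrains these kinases. TIRAP brings MYD88 to the membrane, TICAM1 (TRIF) carries the signal of TLR3 and, through TICAM2 (TRAM), that of TLR4, and NOD1 and NOD2 are cytoplasmic sensors of bacterial peptidoglycan fragments that signal through the kinase RIPK2. Both routes end in activation of NF-κB, and MYD88 and the IRAKs are well known in B-lineage cells.

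Libraries are given below in the order of their total counts, which were 15202503, 20077280 and 23453473 with GST and 22874133, 28837431 and 44688737 with GST-PTR1. At this depth 3 counts correspond to 0.0671 to 0.197 CPM (counts per 1000000 counts of the library), and 3 counts or fewer were taken as the limit of detection. These limits cover counting error only. Pearson's r of log2 CPM went down to 0.985 between libraries of the same treatment and up to 0.970 between treatments. All 9 plasma cell markers examined passed the filter on low counts, with 3 higher and 3 lower, and their summed level was 2047 to 2562 CPM with GST and 2102 to 2313 CPM with GST-PTR1. The summed level of 8 monocyte and macrophage markers was 0.923 to 1.98 CPM with GST and 1.32 to 1.62 CPM with GST-PTR1, and CD163 and FCN1 had 0 counts in every library. The 7 T and NK cell markers summed to 63.0 to 87.4 CPM with GST and 41.9 to 56.2 CPM with GST-PTR1. Of these, 5 were at the limit of detection in every library, with CD2 at 0. Nearly all of the sum therefore came from CD8A and NCAM1, which were tested and were lower. Of the monocyte and macrophage markers CD14 and FCGR1A were tested, and FCGR1A was higher, at a low level within a sum of at most 1.98 CPM. The part of the markers that moved in the results below was not tested. The 7 stromal markers summed to at most 0.787 CPM in any library.

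GST-PTR1 raised the RNA of TICAM1, NOD2, IRAK2 and MYD88 and lowered that of NOD1. NOD2 rose 4.33-fold and TICAM1 2.33-fold, IRAK2 rose 1.86-fold, and NOD1 fell by 0.78 on the log2 scale, while IRAK1, the most abundant member, and IRAK4 were not called. TIRAP did not pass the threshold. Of the 10 members, 8 passed the filter on low counts, each with at least 40 counts in every library, and TICAM2 and IRAK3 did not. With an adjusted p under 0.05 as the threshold (edgeR, quasi-likelihood, Benjamini-Hochberg over all 16926 genes tested), 4 of the 8 were higher, against 9.15% of all genes, and 1 was lower, against 11.4%. The 4 became 3 when any library was left out, MYD88 being the one lost. A change in either direction was called for 20.6% of all genes. TICAM1 and NOD2 also changed by at least 2-fold, which 3.68% of all genes did upward and 3.85% downward. The median log2 fold change was 0.15 over the 8 members and 0.01 over all genes tested. In 6 of the 8 members the libraries of the treatments did not overlap, compared with 40.4% of all genes tested. These p-values measure the spread between the replicates of this experiment.

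**Figure D1:**
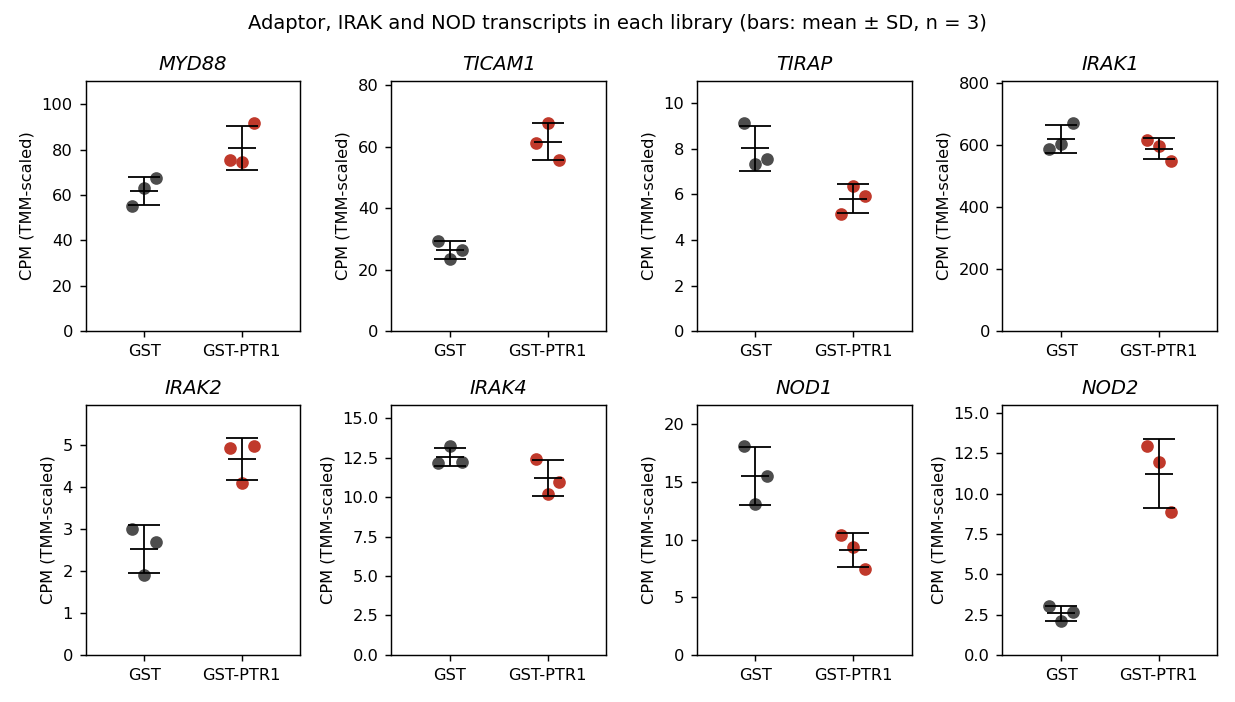
Level of the 8 members tested in each of the 6 libraries, in CPM on TMM-scaled library totals, with each panel's axis starting at 0; points are libraries and bars are the mean ± SD of 3. The treatments are apart in TICAM1, NOD2, IRAK2, NOD1, MYD88 and TIRAP and overlap in IRAK1 and IRAK4, and on plain library totals MYD88 overlaps while IRAK1 and IRAK4 are apart, lower with GST-PTR1.

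The stretches just upstream of the start sites of TICAM1, MYD88 and NOD2 are shown. TICAM1 and NOD2 changed by at least 2-fold, and MYD88 is the main adaptor of the group. The call of MYD88 was lost when any library was left out. IRAK2 and NOD1 were also called, and their windows, which held no match, are not shown. The sequences are the 250 bases before each start in RefSeq's annotation of GRCh38.p14, read 5′ to 3′ on the gene's strand, and capitals mark a motif match where there is one. NOD2 has a pair of annotated starts. These coordinates belong to GRCh38.p14 and cannot be compared with the GRCh37 coordinates of the counts given further on.
TICAM1, chr19:4831713-4831962, minus strand: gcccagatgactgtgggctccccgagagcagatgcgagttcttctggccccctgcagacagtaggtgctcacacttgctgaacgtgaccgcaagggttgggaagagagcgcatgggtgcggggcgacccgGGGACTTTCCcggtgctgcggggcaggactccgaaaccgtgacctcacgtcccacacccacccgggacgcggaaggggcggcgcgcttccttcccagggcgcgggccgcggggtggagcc
MYD88, chr3:38138411-38138660, plus strand: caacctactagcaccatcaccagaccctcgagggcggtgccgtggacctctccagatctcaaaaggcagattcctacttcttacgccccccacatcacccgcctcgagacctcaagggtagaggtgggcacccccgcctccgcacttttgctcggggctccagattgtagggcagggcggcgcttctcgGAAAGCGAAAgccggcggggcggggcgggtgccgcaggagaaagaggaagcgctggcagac
NOD2, upstream start, chr16:50696698-50696947, plus strand: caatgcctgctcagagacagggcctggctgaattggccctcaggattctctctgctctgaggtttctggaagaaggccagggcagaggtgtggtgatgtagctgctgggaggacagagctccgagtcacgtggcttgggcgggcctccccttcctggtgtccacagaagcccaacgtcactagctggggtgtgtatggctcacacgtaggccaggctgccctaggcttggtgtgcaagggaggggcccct
NOD2, downstream start, chr16:50699130-50699379, plus strand: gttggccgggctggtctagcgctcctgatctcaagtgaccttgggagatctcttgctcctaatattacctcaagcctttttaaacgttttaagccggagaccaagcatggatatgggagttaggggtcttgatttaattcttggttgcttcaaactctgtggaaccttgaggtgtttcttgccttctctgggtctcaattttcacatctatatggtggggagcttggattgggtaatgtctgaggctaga

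Upstream windows were searched on both strands for the NF-κB consensus, which covers many related sequences, and for the core of the interferon-stimulated response element, which is GAAA, any pair of bases and GAAA. The capitals in TICAM1 mark GGGACTTTCC, a match to the NF-κB consensus, and those in MYD88 mark GAAAGCGAAA, a match to the response element core. Over all 35116 windows of this length, 9.96% held the NF-κB consensus and 3.02% the response element core. The letters found in TICAM1 stood in 63 windows, or 0.179%. They were taken from the TICAM1 window itself, and a single sequence cannot be more common than the consensus that covers it. The lower share therefore does not set this match apart. Among the members the NF-κB consensus also matched IRAK1. In TICAM1, 110 bases lay between the match and the start, and in MYD88, 51 bases did. Neither window of NOD2, nor those of NOD1, IRAK2, IRAK3, IRAK4 and TICAM2, held a match, which describes these windows only. Windows were found for 9 of the 10 members, the exception being TIRAP. The GC content was 69.2% in TICAM1, 64.4% in MYD88 and 61.6% and 46.4% at the upstream and downstream starts of NOD2, with a median of 58% over all windows.

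Among the adaptors, TICAM1 (ENSG00000127666, chr19:4815944-4831716 in GRCh37) showed the clearest difference. TICAM1 was at 29.4, 23.7 and 26.6 CPM with GST and at 61.3, 67.9 and 55.8 CPM with GST-PTR1, where CPM is scaled by TMM factors throughout. Every GST-PTR1 library lay above every GST library, with means of 26.5 ± 2.87 and 61.7 ± 6.04 CPM (SD, n = 3). The log2 fold change was 1.22 (SE 0.12, 95% interval 0.95 to 1.49), with an adjusted p of 4.76e-05 by edgeR. In a bulk sample, more RNA in each cell and more cells with the RNA cannot be told apart.

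MYD88 (ENSG00000172936, chr3:38179969-38184513 in GRCh37), the adaptor of most Toll-like receptors, changed less. MYD88 was at 55.3, 63.3 and 67.5 CPM with GST and at 75.5, 74.8 and 91.9 CPM with GST-PTR1. The lowest GST-PTR1 library was above the highest GST library, and the means were 62.0 ± 6.19 and 80.7 ± 9.69 CPM (SD, n = 3). The log2 fold change was 0.38 (SE 0.12, 95% interval 0.12 to 0.64) with an adjusted p of 0.0449 by edgeR, and this call did not hold when any of the 6 libraries was left out, with adjusted p from 0.0510 to 0.138, or with plain library totals, at a log2 fold change of 0.18 and an adjusted p of 0.260.

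TIRAP (ENSG00000150455, chr11:126152960-126168740 in GRCh37), which bridges MYD88 to membrane receptors, was at 9.14, 7.35 and 7.54 CPM with GST and at 5.12, 6.38 and 5.94 CPM with GST-PTR1. All GST libraries were above all GST-PTR1 libraries. The log2 fold change was -0.45 (SE 0.16, 95% interval -0.80 to -0.10), and the adjusted p by edgeR was 0.066, so TIRAP was not called. On the opposite strand TIRAP-AS1 and ENSG00000254905 together overlap 22.5% of its exon bases, and reads were counted by strand.

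TICAM2 (ENSG00000243414, chr5:114914339-114961876 in GRCh37), the adaptor that links TLR4 to TICAM1, was near the limit of detection. It had 1, 2 and 3 counts with GST and 1, 3 and 9 with GST-PTR1, and no fold is given. Of its exon bases, 86.1% lie on the same strand within the exons of TMED7 or of the readthrough gene TMED7-TICAM2, and reads overlapping several genes were left out of the counts. Its level is therefore uncertain. The readthrough gene had at most 2 counts in any library. TMED7, a cargo receptor of early secretory transport, had 712 to 1975 counts, and its log2 fold change was 0.24 with an adjusted p of 0.168 by edgeR.

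Among the kinases, IRAK1 (ENSG00000184216, chrX:153275951-153285431 in GRCh37) was at a high level in both treatments. IRAK1 was at 587, 602 and 672 CPM with GST and at 616, 598 and 550 CPM with GST-PTR1. The libraries of the treatments overlapped on this scale, and on plain totals those of IRAK1 did not, with GST-PTR1 lower. Between treatments the log2 fold change was -0.08 with a 95% interval of -0.32 to 0.16 and an adjusted p of 0.646 by edgeR.

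IRAK4 (ENSG00000198001, chr12:44152747-44183346 in GRCh37), the kinase that MYD88 binds directly, was at 12.2, 13.2 and 12.2 CPM with GST and at 12.4, 10.2 and 10.96 CPM with GST-PTR1. These values also overlapped between treatments, and on plain totals they did not. This gave a log2 fold change of -0.17 with a 95% interval of -0.45 to 0.12 and an adjusted p of 0.382 by edgeR. For both kinases the interval excludes a 2-fold change in either direction.

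IRAK2 (ENSG00000134070, chr3:10206549-10285427 in GRCh37), the kinase associated with late and sustained signaling, was low but rose with GST-PTR1. It had 50, 40 and 67 counts with GST and 110, 112 and 196 with GST-PTR1, equal to 3.01, 1.89 and 2.69 CPM against 4.94, 4.10 and 4.97 CPM. No GST-PTR1 library fell to the level of a GST library. The log2 fold change was 0.89 (SE 0.21, 95% interval 0.43 to 1.35), with an adjusted p of 0.0119 by edgeR.

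IRAK3 (ENSG00000090376, chr12:66582659-66648402 in GRCh37), the inhibitory member often called IRAK-M, had 1 count in each GST library and 0, 3 and 4 counts in the GST-PTR1 libraries. With 10 counts over all libraries, a difference was not detectable at this depth. With a filter of at least 1 count in any library, edgeR called neither IRAK3 nor TICAM2, at adjusted p of 0.738 and 0.686.

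The sensors moved in opposite directions. NOD2 (ENSG00000167207, chr16:50727514-50766988 in GRCh37), which recognizes muramyl dipeptide, had 50, 44 and 67 counts with GST and 288, 326 and 349 with GST-PTR1. On the CPM scale these were 3.01, 2.09 and 2.69 against 12.9, 11.9 and 8.86, so the lowest GST-PTR1 library was well above the highest GST library. The log2 fold change of NOD2 was 2.12 (SE 0.20, 95% interval 1.67 to 2.56) with an adjusted p of 3.33e-05 by edgeR, the largest change among the 8 members tested.

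NOD1 (ENSG00000106100, chr7:30464143-30518400 in GRCh37), which recognizes peptides with meso-diaminopimelic acid, was at 18.1, 13.1 and 15.5 CPM with GST and at 10.4, 9.38 and 7.46 CPM with GST-PTR1. Each GST-PTR1 library was below each GST library. Its log2 fold change was -0.78 (SE 0.17, 95% interval -1.15 to -0.42) with an adjusted p of 0.00732 by edgeR.

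**Figure D2:**
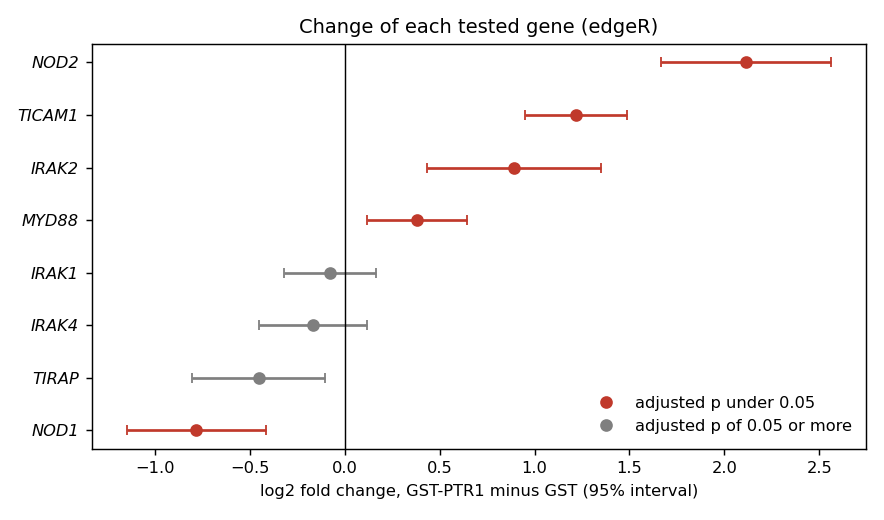
Log2 fold change of each member tested, GST-PTR1 minus GST, with its 95% interval from the edgeR fit (3 libraries per treatment). Intervals of NOD2, TICAM1, IRAK2 and MYD88 lie above 0, those of NOD1 and TIRAP lie below 0, with TIRAP not called after adjustment, and those of IRAK1 and IRAK4 include 0.

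Levels of different genes were compared per length, as RPKM (CPM divided by the exon length in kilobases) on the library totals. With GST, IRAK1 was at 165.8 ± 11.1 RPKM (SD, n = 3), 9.98 times the level of MYD88 at 16.6 ± 1.41 RPKM, and TICAM1 followed at 10.6 ± 1.37 RPKM. NOD1, TIRAP and IRAK4 were level with each other at 2.44 ± 0.444, 2.39 ± 0.345 and 2.38 ± 0.0798 RPKM, and their libraries overlapped. IRAK2 at 0.779 ± 0.190 RPKM and NOD2 at 0.484 ± 0.0962 RPKM overlapped as well and were the lowest of the members tested.

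With GST-PTR1 the order changed below IRAK1, which was at 137.5 ± 14.8 RPKM and was not called under any scaling. TICAM1 at 21.6 ± 2.88 RPKM was beside MYD88 at 18.8 ± 1.33 RPKM, with overlapping libraries, whereas with GST the libraries of this pair had not overlapped. NOD2 at 1.84 ± 0.431 RPKM was now among IRAK4 at 1.86 ± 0.250 and TIRAP at 1.51 ± 0.153 RPKM. IRAK2 and NOD1 were both at 1.25 RPKM, with SDs of 0.133 and 0.262 and overlapping libraries. Against all genes tested, the transcript level of NOD2 went from percentile 11.1 to 34.5, and that of NOD1 from 36.2 to 27.4, while IRAK1 was at 98.1 with GST.

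**Figure D3:**
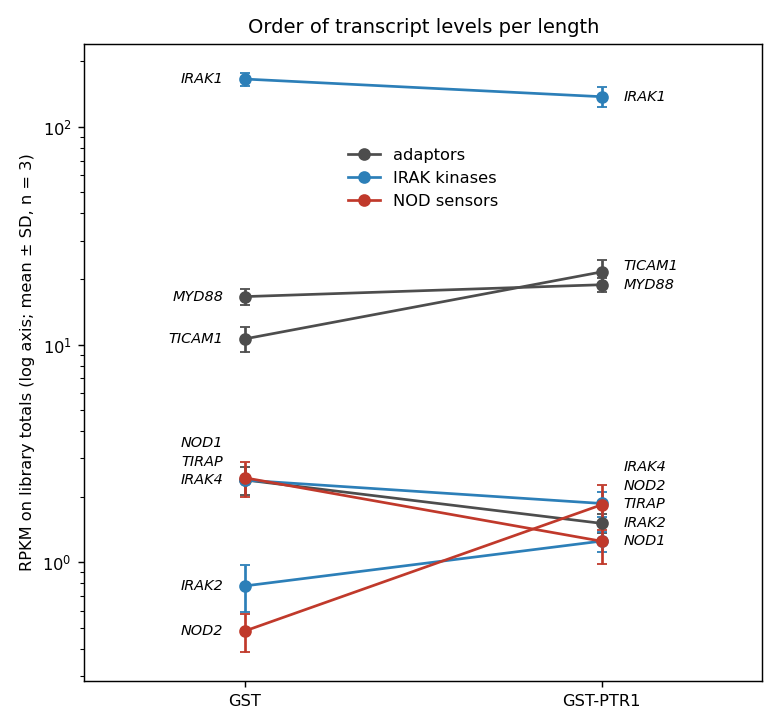
RPKM of the 8 members tested on a log axis with GST and with GST-PTR1 (mean ± SD of 3 libraries), a line joining the values of each gene. TICAM1 draws level with MYD88 and NOD2 passes NOD1, and the slopes are on library totals, which lower all genes by a median of 0.20 on the log2 scale relative to TMM scaling.

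Shares within each family were taken from TPM (counts divided by exon length and scaled to a fixed sum in every library), which do not depend on the scaling between libraries. IRAK1 made up 98.1 ± 0.150% of IRAK transcripts with GST and 97.8 ± 0.226% with GST-PTR1 (SD, n = 3). The share of IRAK2 was 0.461 ± 0.111% and 0.896 ± 0.121%, and that of IRAK4 was 1.42 ± 0.132% and 1.33 ± 0.116%. IRAK1 thus made up nearly all IRAK transcripts in both treatments.

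The makeup of the sensors and of the adaptors shifted more. NOD2 was 16.5 ± 0.586% of the sum of both sensors with GST and 59.4 ± 0.869% with GST-PTR1. Of the sum of MYD88, TICAM1 and TIRAP, the share of TICAM1 was 35.8 ± 3.77% and 51.3 ± 4.95%. MYD88 made up 56.1 ± 4.79% and 45.1 ± 4.99% of this sum, and TIRAP 8.06 ± 1.08% and 3.60 ± 0.289%. By these means the leading adaptor was MYD88 with GST and TICAM1 with GST-PTR1. This order did not hold in every GST-PTR1 library. In that of 44688737 counts MYD88 was at 50.6% and TICAM1 at 45.8%.

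The ratio of a pair of members within each library gives the same comparison sample by sample. The ratio of NOD2 to NOD1 was 0.197, 0.189 and 0.206 with GST and 1.48, 1.51 and 1.41 with GST-PTR1, a difference of 2.89 on the log2 scale with SDs of 0.06 and 0.05. The individual CPM values of both genes varied more between replicates than this ratio did. The ratio of TICAM1 to MYD88 was 0.792, 0.557 and 0.587 with GST and 1.21, 1.35 and 0.905 with GST-PTR1, a log2 difference of 0.84. That of IRAK2 to IRAK1 was 0.00588, 0.00362 and 0.00460 with GST and 0.00921, 0.00789 and 0.0104 with GST-PTR1, a log2 difference of 0.98. In none of these 3 ratios did the treatments overlap. The exact permutation test (two-sided) gave p = 0.1 for each, also 0.1 after Benjamini-Hochberg adjustment over the 3 ratios, which is the smallest value 3 against 3 libraries allow. Ratios with IRAK3 were not taken because a library had 0 counts.

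**Figure D4:**
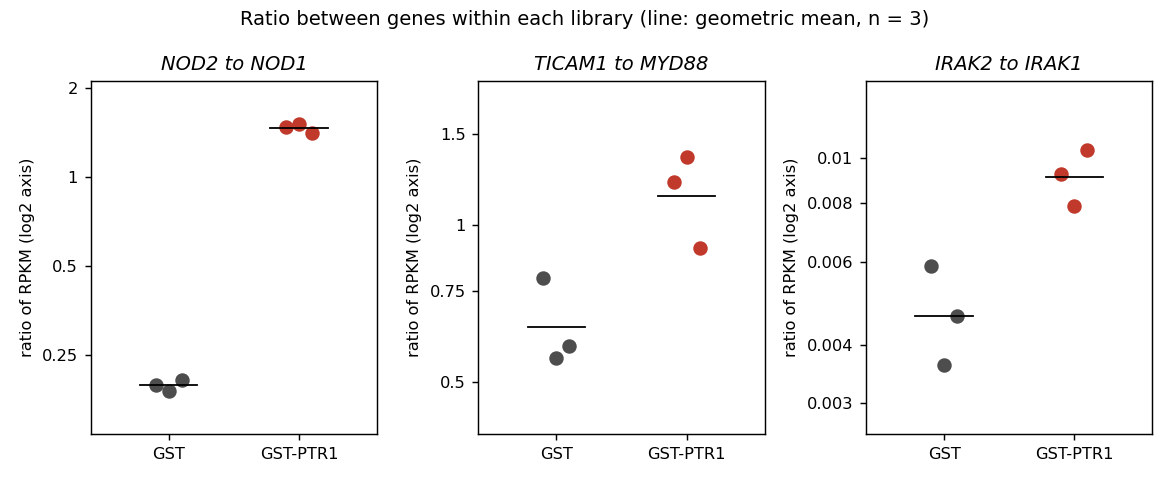
Ratio of RPKM between pairs of members within each library on log2 axes, with points for libraries and lines for geometric means of 3. The ratio of NOD2 to NOD1 is at most 0.206 in every GST library and at least 1.41 in every GST-PTR1 library, and the other pairs are also apart, with more spread.

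The genes around the members in the routes they serve were described from 4 lists, chosen with earlier results of these data known. Of 24 genes for Toll receptors, their relatives and their delivery, 13 were tested, and 2 were higher and 2 lower with GST-PTR1 by edgeR, beside 9.15% higher and 11.4% lower among all genes tested. The median log2 fold change was -0.16, and so small a count is near the share over all genes. TLR7, an endosomal sensor of single-stranded RNA that uses MYD88, rose from 16.4 to 39.0 CPM (log2 fold change 1.25, adjusted p 2.93e-05). TLR1, which pairs with TLR2 for lipopeptides, rose from 16.7 to 27.3 CPM (log2 fold change 0.71, adjusted p 0.00838). TLR3, the sensor of double-stranded RNA that signals through TICAM1 alone, fell from 1.02 to 0.347 CPM, with an adjusted p of 0.00783 by edgeR at 6 to 28 counts per library. It passed the filter on low counts only through the GST libraries, in which it was high, and was not tested with at least 10 counts required in every library. TLR4, the lipopolysaccharide receptor and the only one served by all adaptors of the group, was at 54.3 and 42.5 CPM (log2 fold change -0.36, adjusted p 0.0371), and this call held in 6 of 15 alternative settings. Of the 24 genes, 7 were at the limit of detection in every library, and 4 of these had 0 counts throughout.

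Below the adaptors, 22 kinases, ligases and factors were listed, 20 were matched by identifier and 19 were tested. Of these, 7 were higher and 0 lower by edgeR, beside 9.15% and 11.4% of all genes tested, 0 were lower at an unadjusted p under 0.05, and DESeq2 and limma's voom also called 0 lower. The median log2 fold change was 0.23. MAP3K8, the kinase that links these receptors to ERK, rose from 11.7 to 94.5 CPM (log2 fold change 3.01, adjusted p 2.29e-08). PELI1, an E3 ligase of the IRAK complexes that also takes part in TICAM1 signaling, rose from 62.5 to 320 CPM (log2 fold change 2.36, adjusted p 1.05e-07), and TRAF3, a ligase shared by MYD88 and TICAM1, rose from 4.65 to 9.34 CPM (log2 fold change 1.02, adjusted p 0.00276). IRF5, IRF7, TNIP2 and CHUK were also higher, each by less than 2-fold, and the call of CHUK held in 9 of 15 alternative settings.

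For the NOD sensors, 14 of 16 partners and peptide transporters were tested, with 4 higher and 0 lower by edgeR, beside 9.15% and 11.4% of all genes tested. DESeq2 and limma's voom also called 0 lower, and 0 were lower at an unadjusted p under 0.05. RIPK2, the kinase bound by both NOD1 and NOD2, was at 19.6, 26.8 and 25.6 CPM with GST and at 190, 246 and 296 CPM with GST-PTR1. It rose with a log2 fold change of 3.34 and an adjusted p of 3.69e-07 by edgeR, a larger change than that of either sensor. BIRC3, a ubiquitin ligase of the same complex, rose by more than 2-fold as well, and BIRC2 and OTULIN rose by less, with the call of OTULIN held in 12 of 15 alternative settings. The median of the list was 0.07, since most of its genes were near 0.

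Of 16 negative regulators of these routes, 13 were tested, 8 were higher and 1 was lower, all by at least 2-fold, beside 3.68% and 3.85% of all genes tested, and the median log2 fold change was 1.32. The 8 were IL1RN, SOCS1, NFKBIA, ZC3H12A, TNFAIP3, TNIP1, TRAFD1 and CYLD, among them inhibitors that act on NF-κB itself, on ubiquitin chains or on cytokine receptors rather than on the members. IL1RN had 2, 2 and 4 counts with GST and 51, 69 and 115 with GST-PTR1. It passed the filter on low counts only through the libraries in which it was high. With at least 10 counts required in every library IL1RN was not tested, and 7 of 12 genes were higher. NLRX1, a mitochondrial relative of the NOD proteins, fell from 3.84 to 1.41 CPM, with an adjusted p of 0.00696 by edgeR. IRAK3, an inhibitor within the group, had at most 4 counts in any library.

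**Figure D5:**
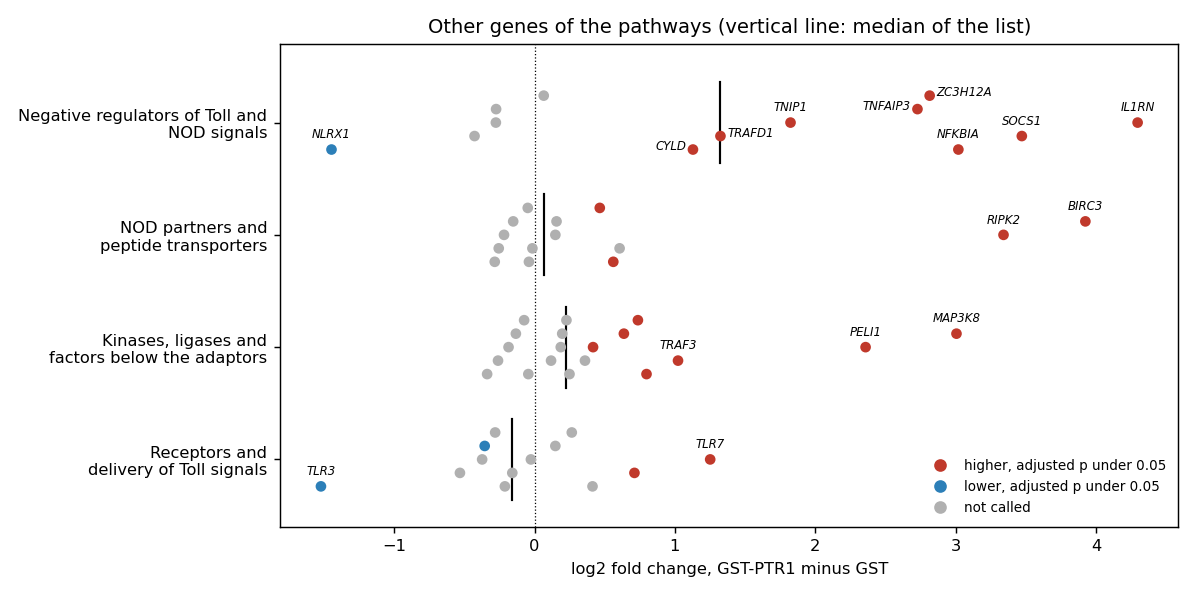
Log2 fold change (GST-PTR1 minus GST) of each tested gene of the 4 pathway lists, with a line at each list's median; red points mark genes called higher and blue points genes called lower by edgeR, and named genes changed at least 2-fold. The median is 1.32 for the negative regulators and between -0.16 and 0.23 for the other lists.

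The nearest tested gene on each side of every member was also examined in the deposited coordinates. Of these 20 genes, 5 were called by edgeR, 4 higher and 1 lower, or 25% against 20.6% of all genes. So small a count is near the share over all genes. NOD2 had a called gene on both sides, SNX20 and CYLD-AS1. SNX20, a sorting nexin that ends 12250 bases from NOD2, had a log2 fold change of 0.75 with an adjusted p of 0.00239 by edgeR. CYLD-AS1, 2636 bases away on the other side, had a log2 fold change of 1.55 with an adjusted p of 0.00637 by edgeR. CYLD-AS1 had 5, 5 and 9 counts with GST and 18, 27 and 35 with GST-PTR1. It passed the filter on low counts only through the libraries in which it was high. CYLD, a deubiquitinase of NF-κB signaling and one of the negative regulators, begins 8973 bases beyond NOD2 and had a log2 fold change of 1.13. On either side of TICAM1, FEM1A and PLIN3 were not called, at adjusted p of 0.0996 and 0.0817 by edgeR. FEM1C beside TICAM2 and HELB beside IRAK3 were higher, at log2 fold changes of 1.47 and 0.91, beside members that did not pass the filter on low counts, and TMEM187 beside IRAK1 was lower at -0.59.

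The genes most like TICAM1 over the 6 libraries, by Pearson's r of log2 CPM among 13359 genes with a mean count of at least 50, were NR6A1, ICOSLG and IGHG2, at r of 0.998, 0.998 and 0.997. Those most like NOD2 were EPHB2, PITPNB and JUN, each at 0.997. Such values were common, since 576 genes had r of at least 0.95 with TICAM1 and 549 with NOD2, and the 6 libraries share a single split into treatments.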

How the data were processed

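RNA-Seq libraries of RPMI8226 cells (3 with GST, 3 with GST-PTR1) were prepared with a strand-specific mRNA kit. The authors deposited raw counts per gene, made with featureCounts 1.5.0-p1 on the Ensembl 75 annotation of GRCh37, counting the reverse strand and leaving out multi-mapped reads and reads over several genes. The submitters' processing notes also name Subread, a package with aligners that includes featureCounts, with no role given, so the aligner is uncertain. The deposited table also gives exon lengths, and nothing in it was normalized.

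From these counts, edgeR 4.0.16 in R 4.3.3 tested differences (TMM factors, filterByExpr, glmQLFit, glmQLFTest, Benjamini-Hochberg over 16926 genes), and the script was tested on simulated data. CPM was scaled by TMM, and RPKM used library totals. Columns gave the treatment of a library but not its replicate number, so libraries were named by treatment and total counts. The smallest chi-square per gene between libraries of a treatment was 7.66, so all 6 were counted separately. The members and lists were chosen with earlier results of these data known. Named genes were the members; list genes called at 2-fold or more, or otherwise the 3 with the smallest adjusted p; the nearest tested genes on each side; genes sharing exons; and the 3 genes most like each member called at 2-fold or more. TLR1, TLR4, IRF5, IRF7, TNIP2, CHUK, BIRC2 and OTULIN, called at less than 2-fold, were named after their values were seen. Alternatives used other scalings, filters and tools (DESeq2 1.42.0, limma 3.58.1), thinning to the smallest total, and left out each library. Sequences came from RefSeq tables of GRCh38.p14.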

Additional observations from a re-analysis of the deposited data

How the results depend on the processing

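Of 13 alternatives chosen at the start and 2 added after seeing the data, none turned the direction of a member. TICAM1, NOD2, IRAK2 and NOD1 passed the threshold under all 15, with log2 fold changes of 1.02 to 1.30, 1.93 to 2.28, 0.69 to 1.02 and -0.98 to -0.64, whereas MYD88 passed under 5. Scaling by library totals lowered all genes by a median of 0.20 on the log2 scale. It called 2 members lower, TIRAP being added at -0.66 with an adjusted p of 0.0126 by edgeR. Also called lower were 5 genes of the list for Toll receptors, their relatives and their delivery, 2 of the NOD partner list and 3 negative regulators. The count of lower genes in the list for Toll receptors and their delivery was 1 with a filter of at least 1 count in any library. It was also 1 with at least 10 counts in every library, and ranged from 1 to 2 when a library was left out. Each time the GST library of 20077280 or 23453473 counts, or any GST-PTR1 library, was left out, TLR4 was no longer called. The counts of higher members ranged from 3 to 3 without a library, MYD88 being the one lost.

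Replicate numbers in the labels could not be tied to columns, so the planned replicate block could not be fitted. Numbers in the column names were shared by 2 pairs of libraries, whose deviations correlated at -0.03. In those 4 libraries, 1 gene of the list for Toll receptors and their delivery was lower both with and without the column number as a block. MYD88 was at 0.34 with the block and 0.35 without it, with adjusted p of 0.0951 and 0.0696 by edgeR. TICAM2 and IRAK3 had at most 9 and 4 counts in a library, and neither was called with the filter of at least 1 count in any library.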
